A study of Mus musculus with 6 samples.

Results

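Potassium channels are the proteins that let potassium leave, and in some cases enter, a cell, and they are described here through 159 probe sets that name 81 genes. The members were taken by name: every probe set annotated to a single gene symbol made of Kcn and a further letter, out of 45037 probe sets tested and 18193 named genes. Antisense transcripts were left out, which removed 8 probe sets of Kcnmb4os1, Kcnmb4os2 and Kcnq1ot1, none of which passed the test described below. Of 94 protein-coding Kcn genes in RefSeq, 13 were not analysed here. The naming rule itself uses no measured value, but the members were chosen with earlier results of these data known.

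The series compared the cortex of wild type mice with that of littermates carrying the HtrA2 knockout, both at postnatal day 29, to find transcripts that differ without the protease. HtrA2 is a protease that resides in mitochondria, between their membranes. Each genotype has 3 arrays of total RNA, and no group received a treatment. The labels do not say which part of the gene was deleted, whether each array came from a separate animal, or which sex the animals had, so p-values rest only on the spread among these arrays, which may be technical.

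The families of channel differ in what opens them. Voltage-gated Kv channels open when the membrane depolarises, and so shape the spike, its repetition and the pauses between bursts. Calcium- and sodium-activated channels open after ion entry, inward rectifiers (Kir) and 2-pore-domain leak channels (K2P) hold the resting potential, and auxiliary subunits change the trafficking and gating of the pore-forming ones. In cortex each class of neuron and glial cell carries its own mixture of them.

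Levels below are RMA values on the log2 scale as deposited, and differences are knockout minus wild type on the same scale. The sign ± gives the standard error of a difference, with n = 3 arrays a group. Levels of different probe sets are not comparable. A probe set is said to have risen or fallen only if limma's moderated two-sided test gave an adjusted p under 0.05 (Benjamini-Hochberg over all 45037 probe sets). In bulk tissue, fewer cells of a type and less RNA per cell cannot be told apart.

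Array medians lay between 6.40 and 6.45, and the number of arrays limits the precision. Of the 2 Htra2 probe sets, 1460495_s_at fell by 2.27 ± 0.17 in the knockout (adjusted p = 0.00227) and 1436269_s_at rose by 1.11 ± 0.08 (adjusted p = 0.00169). The sources used here do not place these probes inside or outside the deleted part, so the one that rose checks no label. Both probe sets are also of the kind (_s_at) that can bind related transcripts. The 7 general neuron markers were bright, with mean levels from 9.96 to 13.79, but these genes do not single out cortex. Knockout replicate 2 lay farthest from its group. Wild type replicate 2 stood apart for choroid plexus RNA, with Ttr at 12.86 against 7.32 to 8.62 in the other 5 arrays. Y-linked probe sets averaged 3.89 and 3.93 in wild type replicate 1 and knockout replicate 3 and from 5.90 to 6.00 in the others, so that 1 array of each genotype stood low.

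More potassium channel transcripts fell than rose in knockout cortex. Of 159 probe sets 9 fell and 1 rose, or 6.29% in all, where 1.77% of all probe sets passed the test, 0.884% lower and 0.884% higher. At an unadjusted p under 0.05 there were 31 lower and 6 higher members, beside 8.55% and 8.33% of all probe sets. By gene, 7 of 81 fell and 1 rose, or 9.88%, against 3.30% of all named genes. The genes that fell were Kcnv1, Kcnq5, Kcnh1, Kcnh5, Kcnc1, Kcnma1 and Kcnj16, and the gene that rose was Kcnk2. The median difference was -0.06 over the channel probe sets and 0.0048 over all probe sets. Of the 159, 104 were below 0 (65.4%), against 48.7% of all.

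Markers of several cell types also lay lower in the knockout arrays. All 7 general neuron markers were below 0 and 1 fell, with mean deviations of -0.18, -0.21 and -0.25 in knockout replicates 1 to 3 (wild type -0.01 to 0.01). Excitatory neuron markers averaged -0.32 to -0.16 in the knockout arrays (wild type -0.06 to 0.06, 1 of 6 fell), but only 3 of the 6 were below 0. Oligodendrocyte markers averaged -0.37 to -0.25 (wild type -0.10 to 0.08, 1 of 6 fell) and progenitor markers -0.50 to -0.41 (wild type -0.03 to 0.04, 2 of 5). Microglial markers averaged -0.47 to -0.36 (wild type -0.14 to 0.10, 3 of 6 fell). Of all genes at 1 probe set a gene, 1.05% fell. Endothelial markers averaged 0.14 to 0.19 (wild type -0.06 to 0.03), with 0 of 5 past limma's test (0 lower and 2 higher at an unadjusted p under 0.05). The part of these markers in the channel counts was not tested.

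Part of this comparison depends on brightness, since bright probe sets pass more often. The 104 members at or above the median mean level of all probe sets (6.42) had 8 that fell and 1 that rose (8.65%), beside 3.14% of all probe sets that bright. Their median difference was -0.10, beside -0.0019 for all bright probe sets, and 71.2% of them were below 0, beside 50.4%. Among the 55 dimmer members 1 fell, Kcnh5 (1.82%, beside 0.391% of all dimmer probe sets passing).

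The genotypes did not overlap at 34 members with every knockout array lower (21.4%) and at 8 with every knockout array higher (5.03%). Over all probe sets these shares were 11.6% and 11.6%, and over the bright ones 17.0% and 17.3%. Among the 45 channel genes with more than 1 probe set, 9 had at least 2 wholly lower in the knockout (20%), beside 9.72% of all such genes: Kcnv1 at all 3 of its probe sets, Kcnh1, Kcnj16 and Kcnk1 at both of theirs, Kcnd1 and Kcnt1 at 2 of 3, Kcnd2 and Kcnj3 at 2 of 4 and Kcnma1 at 2 of 5. In 0 channel genes did 2 probe sets lie wholly higher, beside 7.01% of all such genes.

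**Figure D1:**
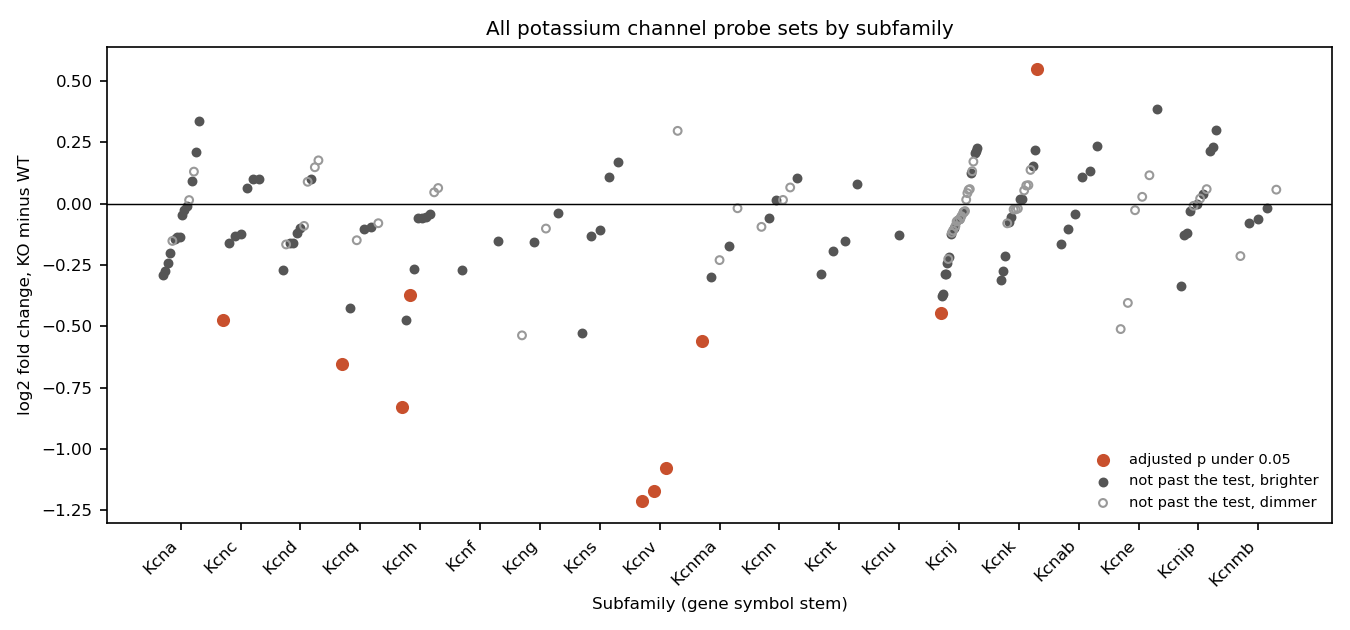
Difference in level (log2, knockout minus wild type, vertical axis) of each of the 159 potassium channel probe sets, grouped by subfamily along the horizontal axis, where red points passed the test (adjusted p under 0.05), grey filled points did not and are at or above the median brightness of all probe sets, and open points are dimmer. The 3 Kcnv1 probe sets lie lowest, from -1.21 to -1.08, and Kcnk2 highest, at 0.55.

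The largest difference lay among the electrically silent subunits, which form no working channel alone but join other Kv subunits and change how these gate. Kcnv1, a silent subunit of forebrain neurons, fell at all 3 of its probe sets. At 1453273_at the wild type arrays (replicates 1 to 3 here and below) measured 9.71, 9.81 and 9.61 and the knockout arrays 8.50, 8.68 and 8.30. The fall was 1.21 ± 0.11, or 2.32-fold (95% confidence interval of the difference -1.47 to -0.96, adjusted p = 0.00442). The nearest arrays of the 2 genotypes were 0.928 apart, while the widest spread within a genotype was 0.385.

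The other Kcnv1 probe sets gave falls of like size. At 1429741_at levels were 8.72, 8.59 and 8.34 in wild type and 7.58, 7.42 and 7.43 in knockout, a fall of 1.08 ± 0.11 (adjusted p = 0.00618). At 1439333_at they were 10.39, 10.46 and 10.32 against 9.46, 9.34 and 8.87, a fall of 1.17 ± 0.15 (adjusted p = 0.0144). Knockout replicate 3 was lowest at both 1453273_at and 1439333_at, but not at 1429741_at. These were the 3 members of 159 with a difference over 2-fold.

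How firmly Kcnv1 was called differed between its probe sets. The call at 1453273_at was kept in all 6 omissions of a single array, with adjusted p up to 0.0406. That at 1429741_at was lost without wild type replicate 2 (adjusted p = 0.0516), and that at 1439333_at without wild type replicate 1, 2 or 3 (adjusted p = 0.0933, 0.0988 and 0.0644). Over all probe sets 0.155%, 0.144% and 0.238% passed without wild type replicate 1, 2 or 3. Genes that neurons induce with activity also lay lower in these arrays, 6 of 13 past the test, with mean deviations from wild type of -0.70, -0.83 and -1.43 in knockout replicates 1 to 3 (wild type arrays from -0.17 to 0.10). Their part in the Kcnv1 result was not tested.

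Other silent subunits did not pass. Kcns2 measured 6.88, 6.79 and 6.48 in wild type and 6.13, 6.46 and 5.97 in knockout at 1421342_at, without overlap, a difference of -0.53 ± 0.15 (adjusted p = 0.123), and its brighter probe set 1457325_at differed by -0.11 ± 0.07. Kcng4 measured 6.08, 6.29 and 6.03 against 5.50, 6.06 and 5.23, so that knockout replicate 2 lay within the wild type range (-0.54 ± 0.19, adjusted p = 0.206). Kcnf1 differed by -0.27 ± 0.10 and -0.15 ± 0.10 at its 2 probe sets. Kcnv2, best known from photoreceptors, was dim (means of 3.75 and 4.04) and differed by 0.30 ± 0.11. Of the 15 silent probe sets, 12 were below 0, with a median of -0.15.

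**Figure D2:**
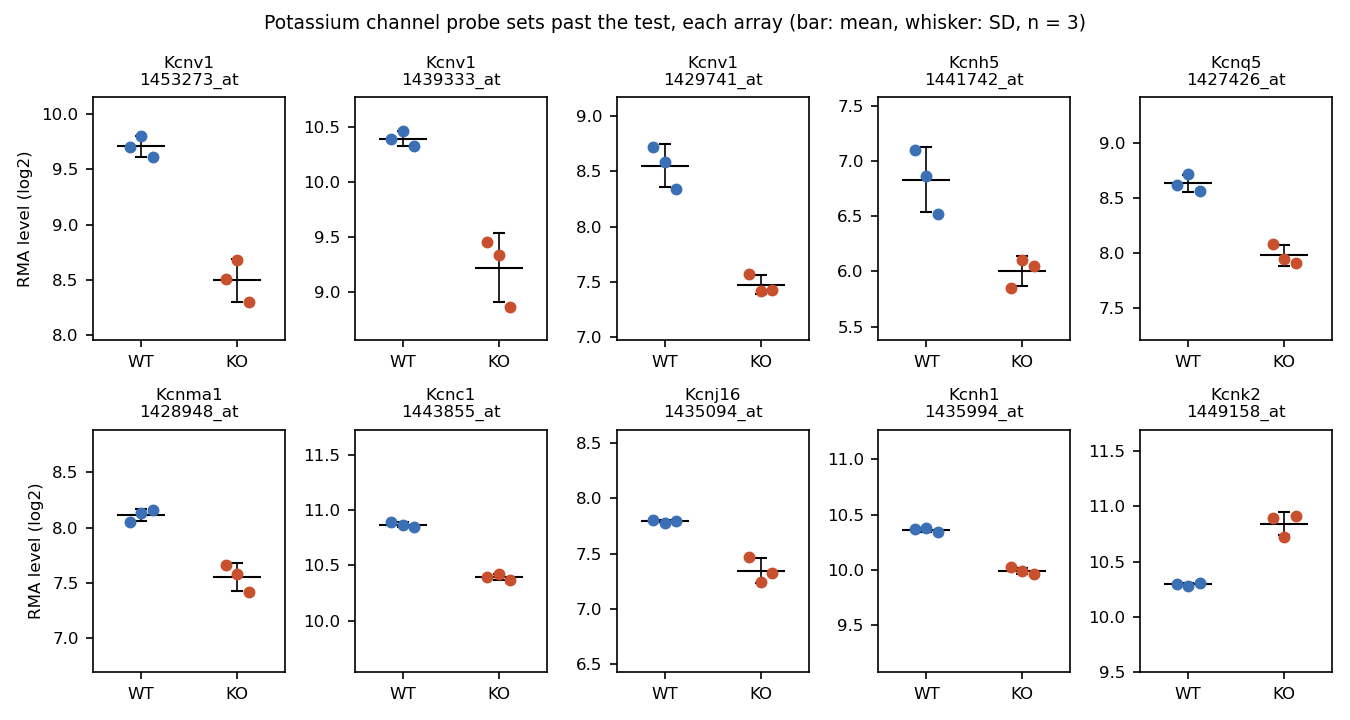
Level of each of the 10 probe sets that passed the test in every array (vertical axis, RMA log2 level, each panel spanning the same range of 2.2 units), with wild type arrays in blue, knockout arrays in red, group means as horizontal bars and the SD of 3 arrays as whiskers. In every panel the 2 genotypes are separate, and Kcnk2 alone is higher in the knockout.

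Kcnq genes encode the Kv7 channels, whose slow M current restrains repetitive firing and is shut off by muscarinic receptors. Kcnq5 fell at 1427426_at, from 8.62, 8.71 and 8.56 to 8.08, 7.94 and 7.91, by 0.65 ± 0.08 (1.57-fold, adjusted p = 0.0145). The genotypes were 0.479 apart there. Its brighter probe set 1457587_at measured 9.91, 9.91 and 9.96 against 9.77, 9.93 and 9.77, and differed by -0.10 ± 0.08 (interval -0.28 to 0.07). The dim 1441071_at differed by -0.08 ± 0.12. Kcnq3, which combines with other Kv7 subunits in the M channel, showed the same split.

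At 1458421_at Kcnq3 measured 7.59, 7.58 and 7.38 in wild type and 7.16, 7.07 and 7.05 in knockout. The groups did not overlap, but the difference of -0.42 ± 0.08 missed the threshold (adjusted p = 0.0519), which it passed with dim probe sets left out (adjusted p = 0.0255). Brighter 1435957_at differed by -0.10 ± 0.07. All 6 Kv7 probe sets were below 0, with a median of -0.13, and Kcnq1, a channel of heart and epithelia, differed by -0.15 ± 0.11. What tells the differing probe sets of Kcnq5 and Kcnq3 apart (transcript ends or splice forms) was not analysed here.

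The ether-a-go-go family, encoded by Kcnh genes, had 2 falls among 10 probe sets (20%). Of all probe sets 1.77% passed, and of the bright ones 3.14%. Kcnh5 measured 7.10, 6.87 and 6.53 in wild type and 5.85, 6.11 and 6.05 in knockout, a fall of 0.83 ± 0.15 (1.78-fold, adjusted p = 0.0378). The wild type arrays ranged over 0.579, more than the gap of 0.418 between the genotypes. Kcnh1, its closest relative, fell at 1435994_at from 10.37, 10.37 and 10.34 to 10.02, 9.98 and 9.96, by 0.37 ± 0.07 (adjusted p = 0.0407). Here the gap of 0.320 was wide beside the ranges of 0.0337 and 0.0553 within the genotypes.

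The second Kcnh1 probe set, 1418414_at, was also lower in every knockout array (9.76, 9.76 and 9.27 against 9.06, 9.11 and 9.19), at -0.47 ± 0.13 (adjusted p = 0.125). Kcnh7, of the erg branch, differed by -0.27 ± 0.08 with no overlap (adjusted p = 0.154). Kcnh2 of the same branch differed by -0.06 ± 0.08, and the 4 probe sets of Kcnh3, which encodes an elk channel of forebrain, by -0.06 to 0.05. Kcnh8 differed by 0.06 ± 0.08.

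Kcnc genes encode the Kv3 channels that let neurons fire fast, parvalbumin interneurons above all. Kcnc1 fell at its brightest probe set 1443855_at, from 10.89, 10.87 and 10.85 to 10.40, 10.42 and 10.36, by 0.48 ± 0.07 (1.39-fold, adjusted p = 0.0200). The arrays of each genotype lay within 0.055 of each other, and the genotypes were 0.427 apart. The other 3 Kcnc1 probe sets did not follow: they differed by -0.16 ± 0.10, -0.13 ± 0.14 and, at 1456944_at, 0.10 ± 0.08 (interval -0.07 to 0.28). Kcnc2, a second Kv3 channel of these interneurons, measured 10.95, 10.97 and 11.07 against 11.04, 10.63 and 10.93 (-0.13 ± 0.11). Kcnc4 differed by 0.10 ± 0.08 and 0.06 ± 0.10, the latter at a probe set of the kind that can bind related transcripts.

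Interneuron markers gave no call in the same arrays (0 of 7 by limma, 3 lower and 0 higher at an unadjusted p under 0.05). Pvalb itself measured 10.55, 10.41 and 10.33 in wild type and 9.87, 10.01 and 10.07 in knockout, -0.45 ± 0.09 (adjusted p = 0.0548), while Gad1 differed by 0.03 ± 0.07. Their mean deviation was from -0.18 to -0.09 in the knockout arrays and from -0.04 to 0.02 in wild type. Its part in the Kcnc1 result was not tested.

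Upstream sequences are shown for the 4 genes that fell and have a single listed start (Kcnc1, Kcnh1, Kcnh5 and Kcnma1), to be read beside the 1 that rose (Kcnk2). Each line is the 250 bases before the start of the gene, 5′ to 3′ in the direction of transcription, from RefSeq (GRCm38.p6). For Kcnk2, which has 4 listed starts, it is the one richest in CG dinucleotides. Capitals mark matches on either strand to the cyclic AMP response element TGACGTCA, its core TGACG, the AP-1 site TGANTCA, the ATF4 and CHOP composite TGATGNAA, the EGR site GCGNGGGCG and the GC box GGGCGG, where N is any base. The full response element contains the core, and an EGR match can overlap a GC box.
Kcnc1, chr7:46396218-46396467, plus strand: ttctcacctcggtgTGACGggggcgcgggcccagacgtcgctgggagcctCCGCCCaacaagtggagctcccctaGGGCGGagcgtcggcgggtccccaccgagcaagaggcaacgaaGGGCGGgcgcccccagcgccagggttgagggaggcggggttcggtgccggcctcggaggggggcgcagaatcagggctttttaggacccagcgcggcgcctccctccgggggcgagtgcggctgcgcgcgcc
Kcnh1, chr1:192190527-192190776, plus strand: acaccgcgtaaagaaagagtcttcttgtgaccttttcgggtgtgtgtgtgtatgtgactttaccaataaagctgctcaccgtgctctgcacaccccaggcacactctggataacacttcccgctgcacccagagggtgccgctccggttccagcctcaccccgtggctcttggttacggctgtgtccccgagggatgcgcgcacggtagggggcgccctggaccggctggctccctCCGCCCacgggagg
Kcnh5, chr12:75177333-75177582, minus strand: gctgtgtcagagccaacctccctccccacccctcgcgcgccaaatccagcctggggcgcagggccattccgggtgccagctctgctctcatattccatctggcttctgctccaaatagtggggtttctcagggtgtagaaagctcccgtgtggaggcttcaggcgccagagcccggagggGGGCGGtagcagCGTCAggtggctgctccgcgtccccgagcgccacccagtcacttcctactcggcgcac
Kcnma1, chr14:24004206-24004455, minus strand: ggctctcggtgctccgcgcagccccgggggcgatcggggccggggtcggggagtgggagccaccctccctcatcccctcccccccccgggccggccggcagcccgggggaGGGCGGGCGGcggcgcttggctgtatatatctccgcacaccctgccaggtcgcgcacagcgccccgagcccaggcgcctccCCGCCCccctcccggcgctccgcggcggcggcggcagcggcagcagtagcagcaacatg
Kcnk2, chr1:189343354-189343603, minus strand: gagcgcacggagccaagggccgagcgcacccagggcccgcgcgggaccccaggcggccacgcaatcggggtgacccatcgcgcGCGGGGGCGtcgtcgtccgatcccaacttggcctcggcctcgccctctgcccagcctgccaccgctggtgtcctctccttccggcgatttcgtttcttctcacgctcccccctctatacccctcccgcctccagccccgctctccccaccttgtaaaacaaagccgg

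Kcnc1 holds 1 TGACG core and 3 GC boxes in this window, Kcnh5 holds 1 core and 1 GC box, Kcnma1 3 GC boxes and Kcnh1 1 GC box. The Kcnk2 window has 1 EGR match. Of the other Kcnk2 starts, which are not shown, 1 has 1 GC box, 1 has 1 AP-1 match and 1 has 0 matches. Of the genes that fell but are not shown, Kcnq5 has 0 matches at both of its starts, and Kcnj16 has 1 GC box at 1 of its 4 starts and 0 other matches. Among all 32851 promoters of the table, 17.8% hold the core, 32.7% a GC box, 4.70% an EGR match, 6.75% an AP-1 match, 3.45% the ATF4 and CHOP composite and 1.55% the full response element. These matches describe letters only. Of the 81 channel genes 62 are in the table, and Kcnv1 is not. Of the 83 channel promoters counted, 45.8% hold a GC box and 14.5% the core. The 83 leave out any channel promoters on certain chromosomes, which the 32851 promoters and the 62 genes do not, so the shares are not over like sets.

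Kcna and Kcnd genes encode the Kv1 channels of axons and the Kv4 channels of dendrites, which carry the A current. Among the 16 Kv1 probe sets 0 passed, where 1.77% of all probe sets did. At an unadjusted p under 0.05, 1 was lower and 1 higher. Kcna1 differed by -0.14 ± 0.13, -0.14 ± 0.14 and -0.0096 ± 0.0904 at its 3 bright probe sets. Kcna2, its usual partner in axons, differed by -0.20 to 0.13 over its 4 probe sets. Kcna4 differed by -0.29 ± 0.10 and -0.24 ± 0.11. At Kcna6 the probe sets disagreed, with 1456954_at wholly higher in the knockout (9.02, 9.02 and 9.12 against 9.35, 9.22 and 9.24, 0.21 ± 0.08, adjusted p = 0.204) and 1421568_at at -0.28 ± 0.17.

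Among 11 Kv4 probe sets 0 passed (1.77% of all probe sets), with 2 lower and 0 higher at an unadjusted p under 0.05. Kcnd2, the main Kv4 channel of pyramidal cell dendrites, measured 11.66, 11.69 and 11.62 against 11.48, 11.21 and 11.47 at 1422835_at (-0.27 ± 0.09, adjusted p = 0.183), and it was wholly lower at 1450773_at too (-0.16 ± 0.08). Kcnd1 was wholly lower at 2 probe sets (-0.17 ± 0.07 and -0.16 ± 0.07). Kcnd3 differed by 0.10 ± 0.11 at its brightest probe set.

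**Figure D3:**
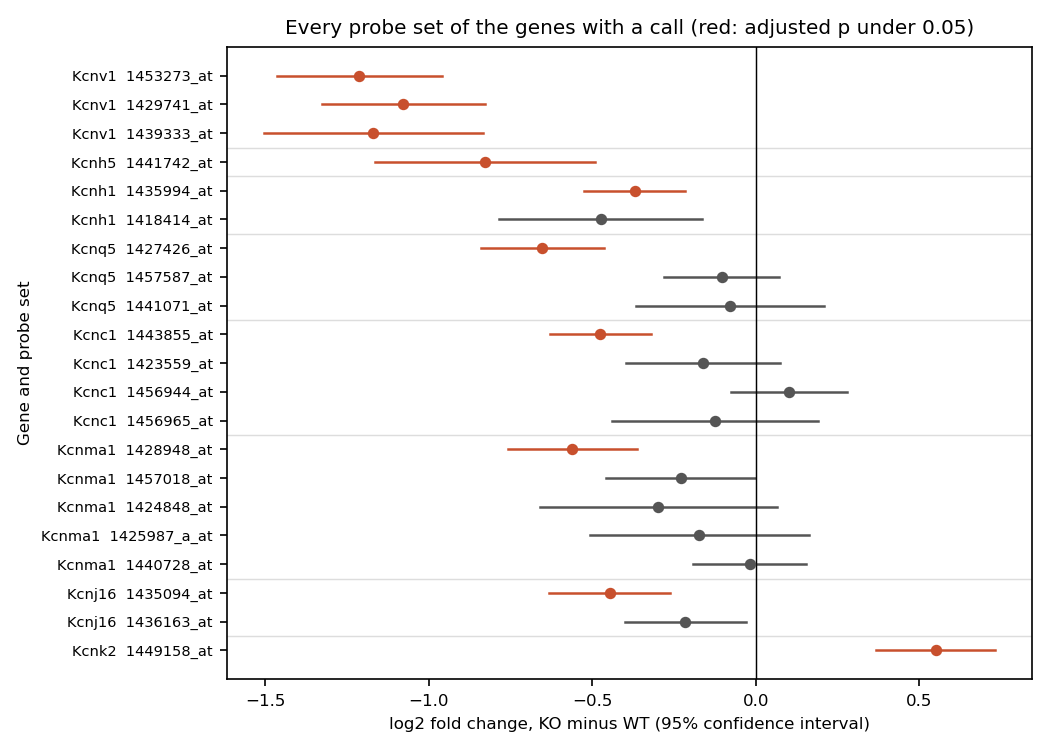
Difference (log2, knockout minus wild type, horizontal axis) with its 95% confidence interval for every probe set of the 8 genes with a call, in rows by gene. Red marks an adjusted p under 0.05. The 3 Kcnv1 probe sets lie close together, whereas for Kcnq5, Kcnc1 and Kcnma1 a single probe set passed and the others lie nearer to 0.

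Calcium- and sodium-activated channels had 1 fall among 16 probe sets (6.25%, where 1.77% of all probe sets passed). Kcnma1, the pore of the large-conductance BK channel that ends spikes after calcium entry, fell at 1428948_at from 8.05, 8.13 and 8.16 to 7.66, 7.58 and 7.42, by 0.56 ± 0.09 (1.48-fold, adjusted p = 0.0252). All 5 Kcnma1 probe sets were below 0. The 2 brightest overlapped between genotypes: 1424848_at measured 10.43, 10.38 and 10.05 against 9.73, 9.94 and 10.29 (-0.30 ± 0.16), and 1425987_a_at differed by -0.17 ± 0.15. In both, knockout replicate 3 was the highest knockout array, while at 1428948_at it was the lowest.

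Kcnt1, a sodium-activated channel, was wholly lower at 1439486_at (8.67, 8.77 and 8.66 against 8.44, 8.35 and 8.46), differing by -0.28 ± 0.07 (adjusted p = 0.103), and at 1458428_at (-0.15 ± 0.08), but not at 1441511_at (0.08 ± 0.08). The calcium-activated channels of the Kcnn genes did not pass. Their 6 probe sets differed by -0.09 to 0.10 and all overlapped between genotypes, with Kcnn1 at 0.10 ± 0.09 having the smallest p. Kcnt2 and Kcnu1 differed by -0.19 ± 0.11 and -0.13 ± 0.12.

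Inward rectifiers had 1 fall among 31 probe sets, or 3.23%, and 15 of the 31 were bright. Of all probe sets 1.77% passed, and of the bright ones 3.14%, which is near that share. Wholly lower were 9 of the 31, or 29.0%, beside 11.6% of all probe sets and 17.0% of the bright ones. Kcnj16 and Kcnj10 encode subunits that astrocytes combine to take up potassium released by firing neurons. Kcnj16 fell at 1435094_at from 7.80, 7.78 and 7.80 to 7.47, 7.24 and 7.32, by 0.45 ± 0.08 (1.36-fold, adjusted p = 0.0402). At 1436163_at group means were 8.18 and 7.96, again without overlap (-0.22 ± 0.08, adjusted p = 0.226). Kcnj10 was also lower in every knockout array, 10.11, 9.96 and 10.04 against 9.73, 9.68 and 9.84 (-0.29 ± 0.08, interval -0.47 to -0.10, adjusted p = 0.119).

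Astrocyte markers moved in both directions beside these genes. Of 7, Aqp4 and S100b fell by 0.59 ± 0.09 and 0.58 ± 0.10 and Gfap rose by 0.63 ± 0.09, while Slc1a2 and Gja1 differed by -0.14 ± 0.08 and 0.14 ± 0.07. Their mean deviation was -0.12, -0.18 and -0.06 in knockout replicates 1 to 3 (wild type -0.02 to 0.01), and its part in the Kcnj16 result was not tested.

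Kcnj3, a subunit of the G protein-gated channels through which inhibitory transmitters hyperpolarise neurons, was below the wild type mean at its 3 bright probe sets. At 1444025_at it measured 8.81, 8.79 and 8.88 against 8.39, 8.36 and 8.60 (-0.38 ± 0.09, adjusted p = 0.0772, or 0.0386 with dim probe sets left out), and the others differed by -0.24 ± 0.07 and -0.29 ± 0.11. Its partner Kcnj9 differed by -0.37 ± 0.18 at 1426115_a_at and by -0.11 to -0.03 at 3 others, and the 5 probe sets of Kcnj6 by -0.12 to 0.13. Kcnj12, of the same strongly rectifying kind as Kcnj4, was dim and wholly lower (-0.23 ± 0.08, adjusted p = 0.200). Kcnj4, a strong rectifier of forebrain neurons, measured 9.51, 9.55 and 9.51 against 9.79, 9.54 and 9.88, so that knockout replicate 2 sat with wild type (0.21 ± 0.10). Kcnj8, the pore of the vascular ATP-sensitive channel, differed by 0.23 ± 0.12, and its neuronal counterpart Kcnj11 by -0.12 ± 0.08 and -0.06 ± 0.07.

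The channels best known from choroid plexus overlapped between genotypes and varied widely within them. Kcne2 measured 3.88, 4.90 and 3.94 in wild type and 4.05, 3.78 and 3.66 in knockout, and its highest value was in wild type replicate 2, the array with the most Ttr. Kcnj13 measured 6.40, 7.25 and 6.86 against 7.01, 6.61 and 7.52, with its highest value in knockout replicate 3. The differences were -0.40 ± 0.26 and 0.21 ± 0.26.

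The 2-pore-domain channels held the single rise, at 1 of 18 probe sets (5.56%, where 1.77% of all probe sets passed). Kcnk2 encodes a leak channel opened by stretch, warmth, lipids and volatile anaesthetics. It measured 10.30, 10.28 and 10.30 in wild type and 10.90, 10.72 and 10.91 in knockout, a rise of 0.55 ± 0.08 (1.46-fold, interval 0.37 to 0.73, adjusted p = 0.0211). The wild type arrays lay within 0.027 of each other, and the nearest knockout array was 0.417 above them. Meningeal markers were higher in the same arrays without passing (0 of 6 by limma, 0 lower and 3 higher at an unadjusted p under 0.05), by 0.37, 0.14 and 0.67 on average in knockout replicates 1 to 3 against -0.12 to 0.18 in wild type. Among the knockout arrays, replicate 2, which lay farthest from its group over all probe sets, was lowest for both the markers and Kcnk2. Replicates 1 and 3 were alike for Kcnk2 (10.90 and 10.91) but not for the markers (0.37 and 0.67). The part of these markers in the Kcnk2 result was not tested.

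Kcnk1, a weak leak channel of neurons and glia, was wholly below wild type at both probe sets, 11.46, 11.37 and 11.38 against 11.03, 11.19 and 11.17 (-0.27 ± 0.08, adjusted p = 0.124) and -0.31 ± 0.10. Kcnk4, which like Kcnk2 responds to stretch, differed by -0.21 ± 0.08 with no overlap (adjusted p = 0.248). Kcnk12 was wholly higher, at 0.22 ± 0.10, and Kcnk3, an acid-sensitive channel, differed by 0.16 ± 0.08 at its brightest probe set. The median of the 18 K2P probe sets was -0.00086.

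Auxiliary subunits gave 0 calls among 29 probe sets by limma, where 1.77% of all probe sets passed. At an unadjusted p under 0.05, 2 were lower and 3 higher, and their median was -0.0088. Kcnip4, a calcium sensor that binds Kv4 channels, was above 0 at all 3 probe sets, with 1451840_at at 10.09, 10.14 and 9.95 against 10.37, 10.14 and 10.57 (0.30 ± 0.12, adjusted p = 0.245). Knockout replicate 2 lay within the wild type range there too. Kcnip2, another sensor of Kv4 channels, differed by -0.33 ± 0.13 at 1425870_a_at, and the probe sets of Kcnip1 and Kcnip3 by -0.13 to 0.04.

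Among the β subunits of Kv1 channels, Kcnab1 differed by 0.23 ± 0.10 and 0.11 ± 0.09 and Kcnab2 by 0.13 ± 0.07 at 1416956_at, where every knockout array was higher. The remaining β subunit probe sets were below 0: Kcnab2 at 1425885_a_at (-0.10 ± 0.26) and Kcnab3 at both of its own (-0.16 ± 0.10 and -0.04 ± 0.13). Kcne4, a small membrane subunit that inhibits Kv channels, measured 6.77, 6.65 and 6.78 against 7.06, 7.33 and 6.96 (0.38 ± 0.11, adjusted p = 0.119). Its relative Kcne1l was wholly lower, 5.76, 6.27 and 6.07 against 5.48, 5.74 and 5.35 (-0.51 ± 0.15, adjusted p = 0.129). Kcnmb4, the neuronal β subunit of BK channels, differed by -0.06 ± 0.09 (interval -0.27 to 0.14), and dim Kcnmb1, of smooth muscle, by -0.21 ± 0.12 and 0.06 ± 0.19.

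Genes that act with these channels but carry other names showed no call. Of 20 measured partners and regulators (of 23 listed) 0 passed by limma, with 1 lower and 2 higher at an unadjusted p under 0.05, against 2.44% of all genes passing at 1 probe set a gene (1.05% lower and 1.39% higher). Dlg1, a scaffold that clusters Kv1 channels, differed by 0.19 ± 0.08 and Cntn2, an adhesion protein beside the node of Ranvier, by -0.21 ± 0.09. The median was -0.03, against 0.02 over all genes. Of 8 measured pumps and cotransporters (of 12 listed) 0 passed, with 0 lower and 1 higher at an unadjusted p under 0.05. Slc12a7 and Slc12a4, which move potassium and chloride out of cells, differed by 0.19 ± 0.08 and -0.16 ± 0.07, and the median was -0.06. By the same rule of the brightest probe set, 5 of 81 channel genes passed (6.17%).

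Seen array by array, the channel probe sets had a median deviation from the wild type mean of -0.10, -0.03 and -0.07 in knockout replicates 1 to 3, against -0.02 to 0.02 in wild type. All 3 knockout arrays lay below all wild type arrays for the silent, Kv10 to Kv12, Kv4, calcium- and sodium-activated and Kir families. They overlapped for Kv1, Kv3, Kv7, K2P and auxiliary genes. The Kv1 median ranged over the knockout arrays from -0.17 in replicate 1 to 0.06 in replicate 3.

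**Figure D4:**
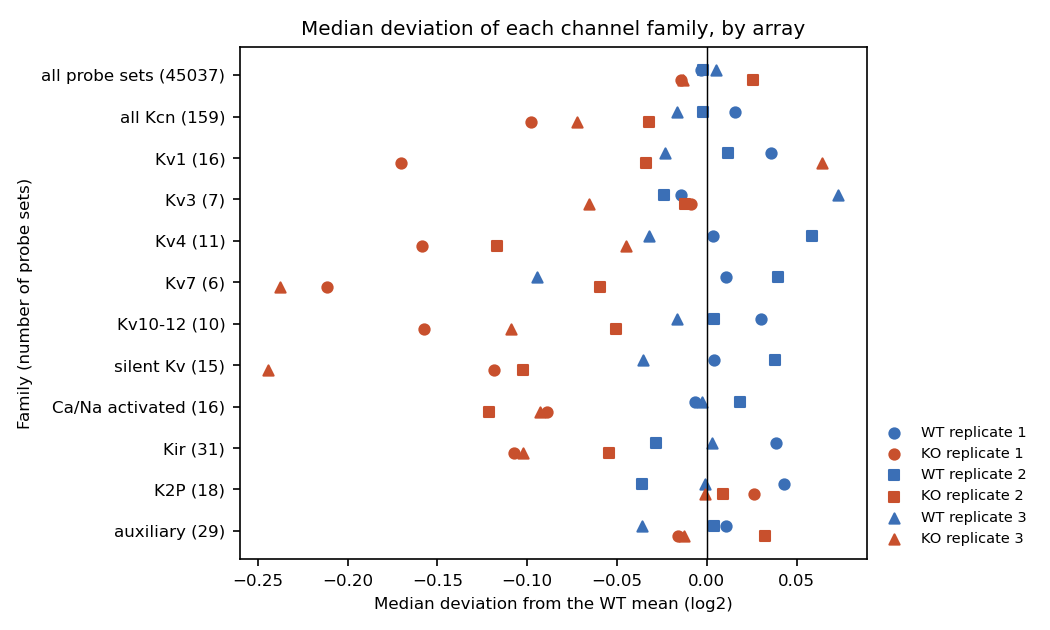
Median deviation from the wild type mean (log2, horizontal axis) over the probe sets of each family (rows, with the number of probe sets), for each wild type array (blue) and knockout array (red), with the marker shape giving the replicate number. All 159 channel probe sets together lie at -0.10, -0.03 and -0.07 in the knockout arrays, and the silent family reaches -0.24 in knockout replicate 3.

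Calls of the genes other than Kcnv1 were lost in 4 or 5 of the 6 omissions of a single array. Each was kept without knockout replicate 2 (adjusted p from 0.0064 for Kcnk2 to 0.0275 for Kcnh5), an omission in which 6.74% of all probe sets passed, and Kcnc1, Kcnh1 and Kcnk2 in no other omission. Kcnh5 kept it also without wild type replicate 3 (adjusted p = 0.0452), and Kcnj16, Kcnma1 and Kcnq5 without knockout replicate 1 (adjusted p = 0.0479, 0.0424 and 0.0319). Without wild type replicate 2 the adjusted p was 0.138 for Kcnc1, 0.222 for Kcnh1, 0.187 for Kcnh5, 0.196 for Kcnj16, 0.138 for Kcnk2, 0.152 for Kcnma1 and 0.104 for Kcnq5. When the Y-linked level entered the fit, Kcnh1 and Kcnj16 lost their calls (adjusted p = 0.0743 and 0.0718), as they did after median centring (0.0512 and 0.0551).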

How the data were processed

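Total RNA was biotin-labelled and hybridised to 6 Affymetrix arrays, per the labels' protocols. The authors deposited log2 values, and the submitters' processing notes name RMA. Base 2 was inferred from the range of the values. RMA brings the arrays to nearly one distribution, which hides a shift shared by most genes and shrinks differences of dim probe sets.

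Of 45101 probe sets, 64 array controls were left out and 45037 tested with no brightness filter. Platform annotation gave 34945 of them 1 symbol, 932 several and 9160 none; 34741 were matched by gene identifier to RefSeq. Genotypes were compared with limma 3.58.1 (lmFit and eBayes) in R 4.3.3, group being the only term, and p-values were adjusted by Benjamini-Hochberg across every probe set tested. The fit was tested on simulated data.

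Members and lists were chosen with earlier results of these data known. Named were members past the test with all probe sets of their gene, the smallest p of each subfamily, set channels of astrocytes, the M current, fast-spiking interneurons and choroid plexus, and up to 2 members of other lists; further members were named after their values were seen. For lists, 1 probe set a gene was used, the one with the highest mean. Replicate numbers are not said to pair animals. Alternatives were a brightness filter, trended robust moderation, other normalization, array weights, the replicate number as a block, the Y-linked level, other thresholds, 1 probe set per gene and leaving out arrays.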

Additional observations from a re-analysis of the deposited data

How the results depend on the processing

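The median difference of the channel probe sets stayed below 0 under every alternative tried, from -0.10 with the brightness filter to -0.05 without knockout replicate 1. The 10 probe sets and 8 genes past the test were less stable. Array weights gave 24 and 20 (15.1% of the channel probe sets, beside 9.34% of all), an adjusted p under 0.01 gave 2 and 1 (1.26% beside 0.175%), and 1 probe set per gene left 5 genes (6.17% beside 4.17%). Leaving out 1 array gave 1 (without wild type replicate 2) to 18 probe sets (without knockout replicate 2) and 1 to 15 genes, where 0.144% and 6.74% of all probe sets passed. Without both replicates numbered 2 there were 3 probe sets and 2 genes (1.89% of the channel probe sets, beside 0.697% of all). The 42 probe sets without overlap became 48 to 72 without 1 array and 86 without both replicates numbered 2, since fewer arrays overlap less often. The same shares over all probe sets were not counted for these omissions, so the larger counts cannot be read as a trait of the channels. With the replicate block 3 probe sets of 1 gene, Kcnv1, passed (1.89% beside 0.342%). Deviations of same-numbered arrays correlated at -0.20, -0.04 and -0.17, and no array correlated best with its own number. The deviations of the 3 arrays of a genotype sum to 0, so this cannot decide whether same-numbered arrays shared a litter or a batch. The calls on Htra2 and the counts of 0 for partners and for pumps did not change under the alternatives run on them.

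Among the named probe sets, signs turned only when 1 array was left out, and only where the difference over all arrays was smaller than its standard error. Kcnq5 1441071_at ran from -0.18 to 0.022 and was above 0 in omissions of wild type replicate 1 and of knockout replicate 1 (0.0089). Kcnj13 ran from -0.030 to 0.42 and was below 0 in omissions of wild type replicate 1 (-0.011) and of knockout replicate 3. Kcnma1 1440728_at ran from -0.045 to 0.029 and was above 0 in the omission of knockout replicate 1. The cause of these differences was not tested. With 3 arrays a group and no detection calls, small differences of dim probe sets cannot be told from noise.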
